A study of Homo sapiens with 6 samples.

Results

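MHC class I antigen presentation was described in human embryonic stem cells through 9 genes taken by symbol from a deposited expression table: B2M, HLA-B, HLA-C, HLA-E, HLA-F, TAP1, TAP2, TAPBP and NLRC5. All 9 were found among the 23591 genes of the table. Transcript levels were measured by RNA sequencing in the established human embryonic line H1, in 3 wild type libraries and in 3 libraries whose label gives a HEB knockout (HEB KO). HEB is an E protein transcription factor encoded by TCF12. Both groups are labelled as embryonic stem cells and were grown on Matrigel in TeSR-E8, a medium without serum, and the labels record no interferon or other treatment for either. The column headers of the 3 HEB KO libraries share 1 prefix, whose meaning is not given. The labels do not say whether the HEB KO libraries came from 1 clone or whether replicates were separate cultures. Any p-value therefore measures only the spread between these libraries, which may be technical. The 9 genes were chosen by name with their FPKM values in these same 6 libraries already known, so they count as selected on the contrast between wild type and HEB KO. Their own difference between the groups is therefore given as a description with no test.

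Class I molecules display peptides from inside the cell to CD8 T cells and natural killer cells. A polymorphic heavy chain pairs with the invariant light chain beta-2 microglobulin, and the TAP transporter brings proteasome-made peptides into the endoplasmic reticulum, where tapasin helps load them. Pluripotent stem cells are known for low surface class I, which interferon gamma raises, and NLRC5 is the transactivator that drives the class I promoters together with proteins bound at their X and Y boxes.

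The values were taken from their range to be FPKM, since the labels do not state the unit. On that reading they are scaled to transcript length, so that levels of different genes can be compared within a library. The libraries' depth is unknown because the table holds no counts. The wild type libraries held 44.2, 55.7 and 51.0 FPKM of the targeted gene, TCF12, and the HEB KO libraries 14.2, 6.69 and 8.28 FPKM. It was lower in every HEB KO library, with a log2 fold change of -2.31 and an adjusted p of 0.0310 by limma. The limma adjusted p rose to 0.106 with no filter on low values, to 0.0957 with the replicate block and to between 0.126 and 0.193 when a library was left out, except HEB KO library 1, without which it was 0.00346. The log2 fold change was -2.31 in the first 2 of these settings and between -2.60 and -2.10 with a library left out. HEB KO library 1 stood apart. It summed to 440703 FPKM against 635114 to 714875 in the other 5 libraries, and 19.3% to 20.005% of the tested genes differed at least 2-fold in FPKM + 1 between it and the other HEB KO libraries, against 1.21% between those. Wild type library 1 also differed from the other wild type libraries, with 6.28% and 8.5955% of genes at least 2-fold apart against 1.11% between those, and it was the highest library for B2M, HLA-B and HLA-C. The 10 stem cell markers summed to 3166 to 3711 FPKM in wild type and to 2090, 3558 and 3745 FPKM in HEB KO, with the low sum in library 1. Among them NANOG was lower in every HEB KO library, at 74.3, 123 and 95.1 FPKM against 208, 203 and 198 FPKM, 2.08-fold lower by the means, and did not pass (limma adjusted p = 0.274). All other markers of this list overlapped between the groups. Of the 10 markers, NANOG included, 5 had a negative log2 fold change and the rest a positive value, so the list did not fall as a whole. NANOG itself moved in the same direction as B2M and HLA-E, and its part in their levels was not tested. The 8 blood and antigen presenting cell markers summed to at most 1.56 FPKM in any library, and PTPRC, the pan-leukocyte marker, was at most 0.0666 FPKM.

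Between the groups, B2M and HLA-E were lower in every HEB KO library than in every wild type library, and the other 7 genes overlapped. None of the 9 was higher in every HEB KO library. Over all 12937 genes tested, the groups did not overlap for 19.5%, made up of 11.8% with HEB KO lower and 7.72% with HEB KO higher. Without HEB KO library 1, 3 of the 9 genes and 43.3% of all genes tested did not overlap. Since the genes were selected on this contrast, nothing is read from these shares. The group mean was lower in HEB KO for 5 of the 9 genes and higher for 4. The median log2 difference of the 9 genes on the log2(FPKM + 1) scale was -0.06, with a range from -1.21 to 0.39, and the median over all genes tested was -0.04. On this scale the change of genes with low values is understated. In bulk RNA, fewer cells of a type and less RNA per cell cannot be told apart.

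**Figure D1:**
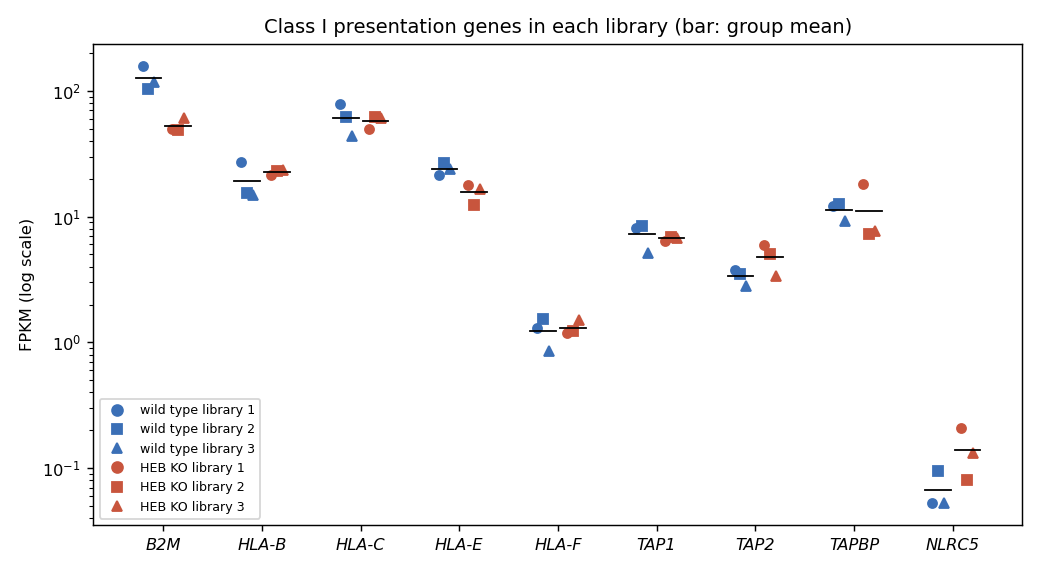
FPKM on a log scale for the 9 genes in each of the 3 wild type (blue) and 3 HEB KO (red) libraries, with a bar at each group mean. B2M reads 102 to 158 FPKM in wild type and 48.6 to 60.3 FPKM in HEB KO, while most other genes overlap between the groups.

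B2M encodes the light chain that pairs with the class I heavy chains and stabilises the peptide-loaded complex at the surface. The wild type libraries held 158, 102 and 117 FPKM of B2M, and the HEB KO libraries 49.7, 48.6 and 60.3 FPKM. The lowest wild type library lay above the highest HEB KO library, and wild type library 1 was the highest. The wild type mean was 126 ± 28.7 FPKM and the HEB KO mean 52.9 ± 6.44 FPKM (SD, n = 3 in each group, as for all means here), which is 2.37-fold lower. Without HEB KO library 1 the HEB KO mean was 54.5 FPKM, 2.31-fold lower, so the difference was nearly as large without that library. Wild type libraries 2 and 3 averaged 109 FPKM. The log2 difference was -1.21 with all libraries, -1.04 without wild type library 1 and -0.999 without both libraries numbered 1. By mean level in wild type, B2M ranked 683 among all genes of the table.

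The sequence upstream of B2M is shown because it is the one among the scanned promoter windows of the 9 genes that holds an E-box. E-boxes are the motif class that E proteins such as HEB bind. Promoter windows of 300 bases, from 250 before to 50 after the start site, were taken from RefSeq on GRCh38.p14 for 7 of the 9 genes. HLA-E and NLRC5 had no entry. TAP1 had 2 windows, and only the window nearest the outer end of the gene was scanned. HLA-B and TAP1 are printed beside B2M as examples of a heavy chain and a transporter gene. Capitals mark E-boxes (CANNTG), the interferon-stimulated response element (GAAA, any 2 bases, GAAA), TGACG, which lies in the X2 box of class I promoters, and the CCAAT box (CCAAT), which lies in the Y box, each on either strand. The B2M window is chr15:44711267-44711566 on the plus strand, HLA-B chr6:31357130-31357429 and TAP1 chr6:32853655-32853954, both on the minus strand, each printed 5′ to 3′ along the gene.
B2M: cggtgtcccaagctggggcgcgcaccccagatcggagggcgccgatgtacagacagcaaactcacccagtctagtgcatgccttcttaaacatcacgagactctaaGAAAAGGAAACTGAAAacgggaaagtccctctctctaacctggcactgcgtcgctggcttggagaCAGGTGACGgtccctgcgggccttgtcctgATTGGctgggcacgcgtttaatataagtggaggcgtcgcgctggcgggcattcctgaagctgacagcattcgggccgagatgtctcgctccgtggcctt
HLA-B: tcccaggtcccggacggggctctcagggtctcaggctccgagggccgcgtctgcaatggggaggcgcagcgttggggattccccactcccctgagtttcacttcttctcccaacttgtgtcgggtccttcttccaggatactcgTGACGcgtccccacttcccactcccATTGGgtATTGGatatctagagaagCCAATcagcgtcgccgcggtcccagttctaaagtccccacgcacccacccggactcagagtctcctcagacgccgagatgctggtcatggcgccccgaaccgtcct
TAP1: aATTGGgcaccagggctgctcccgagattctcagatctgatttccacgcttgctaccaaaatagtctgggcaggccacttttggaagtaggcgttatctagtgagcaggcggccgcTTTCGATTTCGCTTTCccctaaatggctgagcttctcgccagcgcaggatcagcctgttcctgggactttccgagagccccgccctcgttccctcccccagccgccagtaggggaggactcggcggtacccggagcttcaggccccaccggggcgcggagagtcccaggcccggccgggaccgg

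In the B2M window the E-box reads CAGGTG and starts at position -79, counted with the start site as 0. Its last bases are the first of a TGACG that starts at position -75, so both motifs share letters. The letters CANNTG occurred in 1 of the 7 windows and in 68.7% of all 35116 promoter windows in RefSeq, and CAGGTG in 20.6% of these. The interferon-stimulated element, matched by its exact letters only, occurred in 5 of the 7 windows, those of B2M, HLA-F, TAP1, TAP2 and TAPBP. It occurred in 3.57% of all windows. Its matches in B2M, and likewise those in TAP1 and TAPBP, overlap each other. TGACG occurred in 4 of the 7 windows and in 24.6% of all, and CCAAT in 5 of the 7 and in 34.6% of all. A match says only that these letters are present. No match says nothing of binding outside the window or of sites within it that differ from these letters.

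Of the 4 heavy chain genes, HLA-E was lower in every HEB KO library and HLA-B, HLA-C and HLA-F overlapped between the groups. HLA-C encodes a classical heavy chain that is also a ligand of killer-cell immunoglobulin-like receptors. Its levels were 77.8, 61.6 and 43.6 FPKM across the wild type libraries, against 49.6, 61.5 and 60.4 FPKM across the HEB KO libraries. All HEB KO values lay inside the wild type range, with means of 61.0 ± 17.1 and 57.2 ± 6.61 FPKM.

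HLA-B is the most polymorphic classical heavy chain gene. Its levels were 27.0, 15.3 and 14.8 FPKM across the wild type libraries, against 21.6, 23.2 and 23.5 FPKM across the HEB KO libraries. Wild type library 1 was the highest of the 6 libraries, whereas the other wild type libraries lay below every HEB KO library. The means were 19.0 ± 6.89 and 22.7 ± 1.03 FPKM, with a log2 difference of 0.30, and without wild type library 1 the log2 difference was 0.56 with no overlap.

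HLA-E encodes a non-classical chain that presents leader peptides of other class I chains to the NKG2 receptors of natural killer cells. Its levels were 21.5, 26.8 and 23.9 FPKM across the wild type libraries, against 17.8, 12.3 and 16.5 FPKM across the HEB KO libraries. The groups did not overlap, and HEB KO library 1 was the closest to wild type. The means were 24.1 ± 2.68 and 15.6 ± 2.88 FPKM, 1.55-fold lower in HEB KO, and 1.67-fold lower without HEB KO library 1.

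HLA-F encodes a non-classical chain of mostly intracellular location. Its levels were 1.295, 1.54 and 0.861 FPKM across the wild type libraries, against 1.19, 1.23 and 1.51 FPKM across the HEB KO libraries. The groups overlapped at this low level, with means of 1.23 ± 0.346 and 1.31 ± 0.176 FPKM. HLA-F-AS1, the antisense transcript whose span overlaps HLA-F, averaged 2.02 ± 0.687 FPKM in wild type against 0.752 ± 0.209 in HEB KO, and it did not pass (log2 fold change -0.77, limma adjusted p = 0.372). It entered the test through its wild type libraries alone. Whether the counting used strand is not given in the sources used here, so values of HLA-F and HLA-F-AS1 cannot be told apart with certainty.

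Reads of heavy chain genes can be shared between paralogues. In GENCODE transcripts, 2.0% of the 50-base stretches of HLA-B also occur exactly in HLA-C, and 1.73% of those of HLA-C occur in HLA-E. Among the 4 heavy chain genes described, these shares lay between 0.0392% and 2.0%. Heavy chain values are therefore uncertain where the counting could split such reads.

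**Figure D2:**
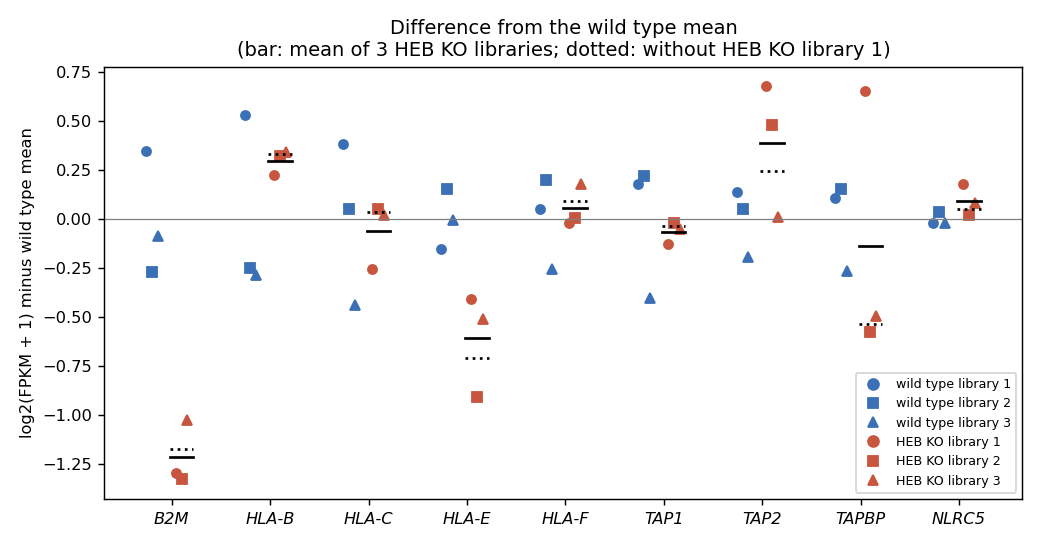
Difference of each library from the wild type mean on the log2(FPKM + 1) scale for the 9 genes, in wild type (blue) and HEB KO (red) libraries; the solid bar is the mean of 3 HEB KO libraries and the dotted bar leaves out HEB KO library 1. B2M and HLA-E lie below 0 in all HEB KO libraries, and for TAPBP the dotted bar is at -0.53 where the solid bar is at -0.14.

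The transporter and tapasin genes all overlapped between the groups. TAP1 and TAP2 encode the subunits of the peptide transporter. TAP1 levels were 8.12, 8.41 and 5.11 FPKM across the wild type libraries, against 6.40, 6.94 and 6.80 FPKM across the HEB KO libraries. All HEB KO values of TAP1 lay within the wild type range, with means of 7.21 ± 1.83 and 6.71 ± 0.283 FPKM. TAP2 levels were 3.77, 3.49 and 2.79 FPKM across the wild type libraries, against 5.93, 5.05 and 3.36 FPKM across the HEB KO libraries. HEB KO libraries 1 and 2 lay above every wild type library, and HEB KO library 3 lay inside the wild type range. The TAP2 means were 3.35 ± 0.503 and 4.78 ± 1.31 FPKM, 1.43 times the wild type mean, or 1.26 times without HEB KO library 1.

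TAPBP encodes tapasin, which bridges the transporter and the empty heavy chain. Its levels were 12.2, 12.7 and 9.21 FPKM across the wild type libraries, against 18.3, 7.24 and 7.72 FPKM across the HEB KO libraries. HEB KO library 1 was the highest of all 6 libraries, at 2.45 times the mean of the other HEB KO libraries, which lay below every wild type library. With all libraries the means were 11.4 ± 1.88 and 11.1 ± 6.25 FPKM. Without HEB KO library 1 the HEB KO mean was 7.48 FPKM, 1.52-fold lower than wild type, so the overlap of the groups and the size of the difference for TAPBP rest on that library. The span of TAPBP overlaps RGL2, which averaged 15.9 ± 2.27 FPKM in wild type against 16.0 ± 1.22 in HEB KO.

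NLRC5 was the lowest of the 9 genes and did not pass the filter on low values. Its levels were 0.0528, 0.0945 and 0.0529 FPKM across the wild type libraries, against 0.207, 0.0812 and 0.131 FPKM across the HEB KO libraries. The groups overlapped, and HEB KO library 1 was again the highest. The means were 0.0667 ± 0.0240 and 0.140 ± 0.0635 FPKM, and the precision of values this low is unknown without counts.

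The order of levels among the 9 genes was nearly the same in both groups. In wild type, B2M was followed by HLA-C, HLA-E, HLA-B, TAPBP, TAP1, TAP2, HLA-F and NLRC5, and of these neighbours HLA-E and HLA-B overlapped. In HEB KO, HLA-C and B2M came first with overlapping values, followed by HLA-B, HLA-E, TAPBP, TAP1, TAP2, HLA-F and NLRC5, and HLA-E and TAPBP overlapped.

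Ratios within a library do not depend on how the libraries were scaled. They were chosen after the values were seen. The B2M to HLA-C ratio was 2.03, 1.66 and 2.67 in wild type and 1.004, 0.790 and 0.999 in HEB KO. In every wild type library B2M transcripts thus exceeded those of HLA-C, and in HEB KO both were near equal or B2M was below. The B2M to HLA-B ratio averaged 6.80 ± 1.01 in wild type and 2.33 ± 0.234 in HEB KO, and the B2M to TAP1 ratio 18.1 ± 5.43 and 7.88 ± 0.935, neither with overlap between the groups. The B2M to HLA-E ratio averaged 5.35 ± 1.81 and 3.46 ± 0.603 and overlapped between the groups. The HLA-B to HLA-C ratio was 0.312 ± 0.0552 in wild type and 0.400 ± 0.0309 in HEB KO, with no overlap, and the TAP2 to TAP1 ratio was 0.475 ± 0.0664 and 0.716 ± 0.217, with overlap.

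**Figure D3:**
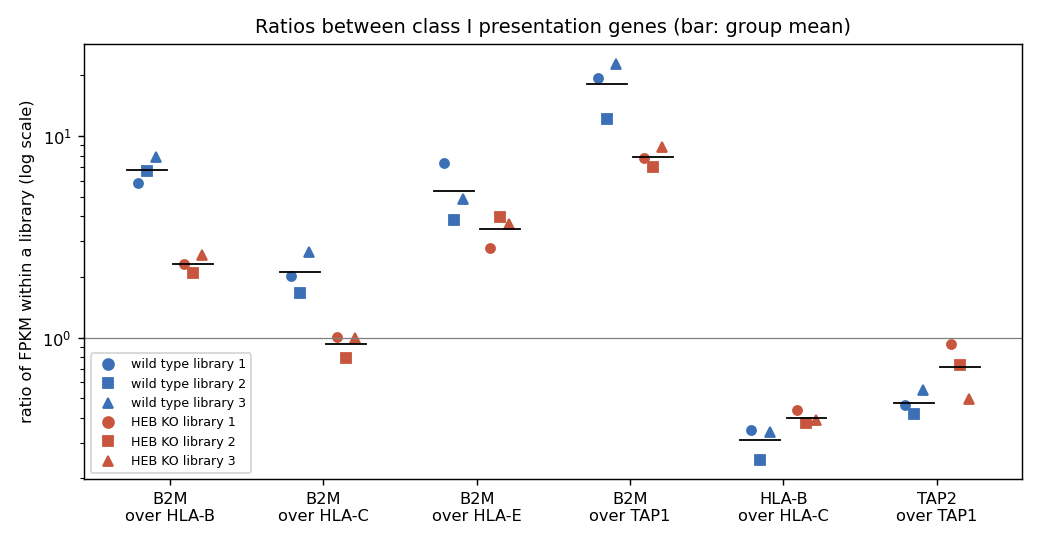
Ratios of FPKM between pairs of the genes within each library, on a log scale, in wild type (blue) and HEB KO (red), with a bar at each group mean. The ratio of B2M to HLA-B lies between 5.85 and 7.85 in wild type and between 2.1002 and 2.57 in HEB KO, and the ratio of B2M to HLA-E overlaps.

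The profile of B2M over the 6 libraries was compared with that of 3936 other genes with a mean of at least 20 FPKM, as a description. The closest by root-mean-square difference of centred log2(FPKM + 1) were TES at 0.13, CD9 at 0.17, P2RY1 at 0.18, F2RL1 at 0.18 and TSPAN6 at 0.19, against a root-mean-square spread of 0.64 for B2M itself. TES encodes the LIM domain protein testin, CD9 and TSPAN6 encode tetraspanins, and P2RY1 and F2RL1 encode G protein-coupled receptors. CD9 averaged 234 ± 79.8 FPKM in wild type against 104 ± 24.0 in HEB KO, and TES 51.2 ± 7.07 and 22.3 ± 3.41 FPKM.

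Of 116 other genes of class I and class II presentation and of its control, in 8 lists, 80 passed the filter on low values and none passed the test between the groups by limma with Benjamini-Hochberg adjustment over all genes. The smallest adjusted p was 0.222, and 7 of the 80 had an unadjusted p under 0.05. Over all genes tested, 0.240% were called, 0.216% as lower and 0.0232% as higher in HEB KO, and 10.0% had an unadjusted p under 0.05. The median log2 fold change of the 80 genes was -0.04, the same as over all genes. With library weights 15 of the 80 were called, beside 1874 of all 12937 genes tested. Without both libraries numbered 1 there were 4 of the 80, beside 480 of the 12937.

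Of 8 tested genes of peptide loading and trimming, 7 were lower in HEB KO and none passed. CALR, the chaperone calreticulin, averaged 436 ± 144 FPKM in wild type against 385 ± 55.9 in HEB KO, and PDIA3, the oxidoreductase that partners tapasin, 292 ± 118 and 217 ± 38.2 FPKM. For both genes wild type library 1 was the highest. ERAP2, an aminopeptidase that trims peptides, did not exceed 0.0601 FPKM in any library, and ERAP1 averaged 8.78 ± 3.29 and 6.66 ± 3.05 FPKM.

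The immunoproteasome, whose catalytic subunits replace the constitutive ones under interferon, was compared next. PSMB9, which lies head to head with TAP1 with start sites 488 bases apart in RefSeq, stood at 0.346, 0.164 and 0.651 FPKM across the wild type libraries, against 0.260, 1.01 and 0.790 FPKM across the HEB KO libraries. Thus PSMB9 stayed far below TAP1 in every library. None of the 4 tested genes of this list passed, and the PA28 activator genes PSME1 and PSME2 averaged 46.4 ± 2.26 and 55.0 ± 8.24 FPKM in wild type, against 36.7 ± 15.2 and 48.5 ± 15.5 FPKM. None of the 3 constitutive catalytic subunits passed either, with PSMB5 at 142 ± 32.3 and 138 ± 64.3 FPKM and PSMB6 at 207 ± 63.4 and 184 ± 78.5 FPKM.

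Among 10 tested genes of other class I and class I-like chains, 8 were lower in HEB KO, the median log2 fold change was -0.42, and none passed. PROCR, the endothelial protein C receptor with a class I-like fold, averaged 22.03 ± 5.63 and 20.3 ± 5.02 FPKM. Chosen after their values were seen, CD1D, which presents lipids and pairs with B2M, averaged 1.32 ± 0.144 FPKM in wild type against 0.245 ± 0.117 FPKM, a log2 fold change of -0.90 with an SE of 0.20 and a limma adjusted p of 0.222. MICB, a stress-induced ligand of the NKG2D receptor that does not need B2M, averaged 17.5 ± 5.84 and 8.37 ± 0.467 FPKM, a log2 fold change of -0.93 with an SE of 0.25 and a limma adjusted p of 0.304. Both were lower in all HEB KO libraries without passing the test, and CD1D entered the test through its wild type libraries alone. By mean FPKM, CD1D was 5.39-fold lower and MICB 2.09-fold lower. The log2(FPKM + 1) scale understates the change of CD1D, whose values are low. HLA-G, the class I gene typical of trophoblast, read at most 0.979 FPKM in any library.

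None of 10 tested enhanceosome genes, which encode the factors bound at the X and Y boxes, passed. RFX5, the DNA-binding subunit of the RFX complex, averaged 20.03 ± 0.338 FPKM in wild type against 19.1 ± 1.23 in HEB KO, and NFYB, a subunit of the CCAAT-binding factor NF-Y, 27.4 ± 4.39 and 22.6 ± 9.22 FPKM. CIITA, the class II counterpart of NLRC5, did not exceed 0.0619 FPKM in any library. NLRC5 and CIITA were thus both at most 0.207 FPKM in all 6 libraries.

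None of 18 tested interferon and NF-kB signalling genes passed. PTPN2, a phosphatase that dampens JAK kinase signalling, averaged 33.7 ± 1.88 FPKM in wild type against 26.9 ± 5.08 in HEB KO. IFNGR2, a subunit of the interferon gamma receptor chosen after its values were seen, averaged 27.5 ± 1.40 FPKM in wild type against 18.3 ± 2.80 in HEB KO, and JAK1, a kinase of interferon receptor signalling, 19.8 ± 1.72 and 12.0 ± 3.36 FPKM (limma adjusted p = 0.399 and 0.400). Both were lower in all HEB KO libraries without passing. In the same list TYK2, IRF1 and RELB were higher in all HEB KO libraries, also without passing. TYK2, another receptor kinase, averaged 3.47 ± 0.553 and 4.30 ± 0.451 FPKM, IRF1, an activator of class I genes, 0.962 ± 0.212 and 1.39 ± 0.151 FPKM, and RELB, an NF-kB subunit, 1.11 ± 0.270 and 1.72 ± 0.312 FPKM, with limma adjusted p of 0.698, 0.655 and 0.588. IRF3, an activator of interferon genes, averaged 14.2 ± 3.76 and 25.5 ± 9.98 FPKM and overlapped. These 4 genes were likewise chosen after their values were seen.

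Of 40 interferon-stimulated genes, 18 passed the filter, 5 of these were lower in HEB KO, and none passed the test. Their median log2 fold change was 0.24. IFITM1 averaged 551 ± 85.0 FPKM in wild type against 329 ± 140 in HEB KO, and IFITM3 135 ± 25.3 and 148 ± 62.4 FPKM; both encode membrane proteins that restrict virus entry and are abundant in stem cells. TRIM22, ISG15 and MX2, chosen after their values were seen, averaged 12.8 ± 1.73, 2.51 ± 2.04 and 0.617 ± 0.163 FPKM in wild type. In HEB KO they averaged 24.7 ± 6.19, 7.80 ± 3.96 and 1.36 ± 0.135 FPKM, with limma adjusted p of 0.317, 0.450 and 0.416. TRIM22 and MX2 were higher in every HEB KO library, and ISG15 overlapped between the groups. DDX58, likewise chosen, was lower in every HEB KO library, at 5.01 ± 1.29 and 3.55 ± 0.192 FPKM (limma adjusted p = 0.583). MX2 entered the test through its HEB KO libraries alone. OAS1, OAS2, GBP2, IFI44 and SAMD9, further interferon targets chosen after their values were seen, stayed below 0.1 FPKM in every library, as 10 genes of this list did.

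**Figure D4:**
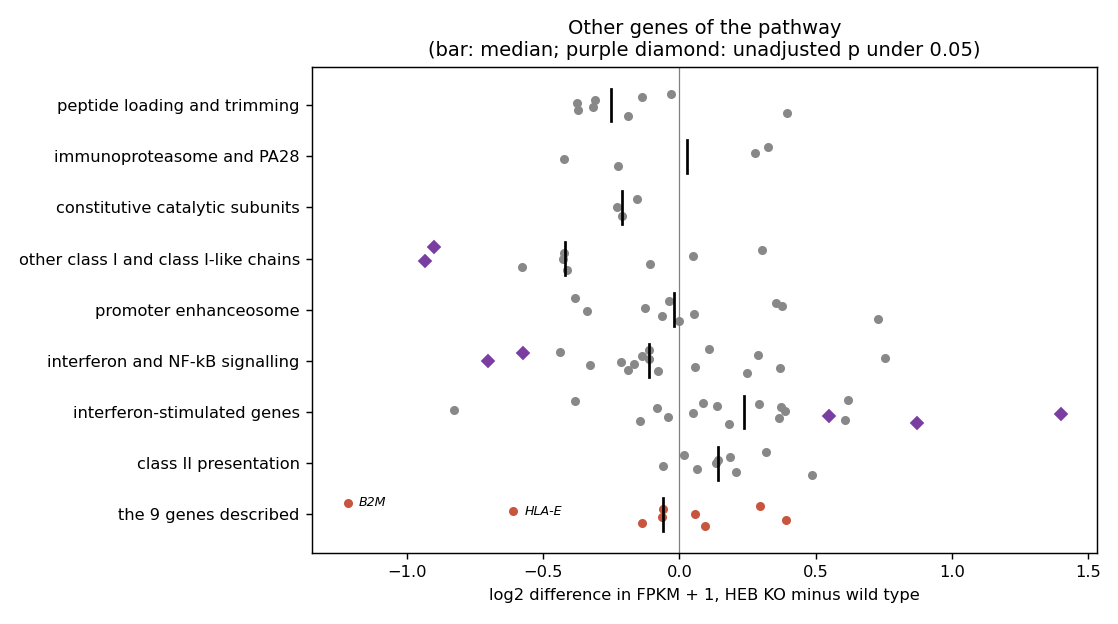
Log2 difference in FPKM + 1 between HEB KO and wild type for the reported tested genes of 8 lists and for the 9 genes described; each point is 1 gene, the bar is the median of all tested genes of the list, and purple diamonds have an unadjusted limma p under 0.05. B2M at -1.21 lies below every list gene plotted, and no gene of the lists passed the adjusted test.

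None of 9 tested class II genes passed, 8 of them being higher in HEB KO. CD74, the invariant chain of class II, averaged 13.8 ± 0.944 and 17.6 ± 2.45 FPKM, and HLA-DOA, which modulates class II loading, 13.7 ± 3.59 and 15.003 ± 1.98 FPKM. The genes lying beside the 9 described genes in RefSeq order on 3 chromosomes were also compared. Of 29 such neighbours 16 were tested and none passed, 9 of them lower in HEB KO, with a smallest adjusted p of 0.372 for HLA-F-AS1.

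Markers of other cell types were listed beside these values. Trophoblast markers summed to 9.37 FPKM in HEB KO library 1 and to 1.53 to 2.89 FPKM in the other 5 libraries. The 7 genes did not all move together. GATA3, TFAP2A, TP63 and VGLL1 were each highest in HEB KO library 1, whereas KRT7, GATA2 and CGA were not. GATA3 and TFAP2A stood at 2.47 and 3.90 FPKM in HEB KO library 1 and at most at 0.0407 and 0.0609 FPKM elsewhere. TP63 and VGLL1 stood at 0.395 and 0.748 FPKM in HEB KO library 1 and at most at 0.0270 and 0 FPKM elsewhere. KRT7 was higher in every HEB KO library, at 1.40 to 2.78 FPKM against 0.624 to 1.06 FPKM. GATA2 was lower in every one, at 0.0333 to 0.161 FPKM against 1.06 to 1.74 FPKM. CGA was near absent in both groups, at most 0.0454 FPKM in any library. Neither KRT7 nor GATA2 passed the test, with limma adjusted p of 0.409 and 0.140. GATA2 entered the test through its wild type libraries alone. Mesenchyme markers summed to 223 to 294 FPKM in wild type and to 232 to 354 FPKM in HEB KO, a sum carried mostly by THY1, which overlapped between the groups. Of the 9 mesenchyme genes, COL1A1, TAGLN and ACTA2 were higher in every HEB KO library and none was lower in every one, with LUM and DCN at or near 0. COL1A1 averaged 0.923 ± 0.464 and 14.9 ± 21.5 FPKM, TAGLN 18.0 ± 8.39 and 83.1 ± 73.9 FPKM, and ACTA2 1.48 ± 0.703 and 4.69 ± 2.65 FPKM. None passed (limma adjusted p of 0.502, 0.372 and 0.386). The HEB KO libraries held 39.7, 3.21 and 1.74 FPKM of COL1A1, so its mean came mostly from library 1 and was 2.47 FPKM without it. They held 32.3, 168 and 49.3 FPKM of TAGLN, with library 2 the highest, and 7.62, 4.02 and 2.44 FPKM of ACTA2. Endoderm markers summed to at most 0.429 FPKM in wild type and to 0.157 to 2.09 FPKM in HEB KO. Endothelial markers summed to 33.8 to 84.9 FPKM in wild type and 44.5 to 45.3 FPKM in HEB KO, mostly from KDR and TEK, with CDH5 at most 0.196 FPKM. Neural markers summed to 71.5 to 95.5 FPKM and to 57.2 to 134 FPKM. The part of these markers in the levels of the 9 genes was not tested.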

How the data were processed

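RNA was depleted of ribosomal RNA and made into stranded libraries, per the labels' protocols. The submitters' processing notes name TopHat2 2.1.0, Bowtie2 2.2.6 and hg19. The deposited table holds 1 value per symbol and library, taken from the range of the values to be FPKM made by the authors. The tool behind them is not given in the sources used here. After 28 entries with a date for a symbol were left out of 23619, 23591 genes remained. Without counts, the depth and the precision of low values are unknown.

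Groups follow the labels. Genes with 1 FPKM or more in 3 or more libraries (12937) were fitted with limma 3.58.1 (R 4.3.3) on log2(FPKM + 1) with a mean-dependent prior variance, and p-values were adjusted by Benjamini-Hochberg with a threshold of 0.05. The fit was checked on simulated data. Fold values are ratios of mean FPKM. The text names the 9 genes, TCF12, up to 4 genes of each list past the threshold or else the 2 with the highest mean, the 5 nearest to B2M and overlapping neighbours; any other gene was picked after seeing its values. The members and lists were chosen with earlier results of these data known. Among the lists, 2 genes are not reported here. RefSeq GRCh38.p14, which differs from hg19, matched 22585 symbols and served for neighbours and promoters; transcripts came from GENCODE. Alternatives were other pseudocounts, filters and scalings, library weights, a replicate block and left-out libraries.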

Additional observations from a re-analysis of the deposited data

How the results depend on the processing

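The filters, the replicate block and library weights cannot change a plain difference of group means. Across the other 11 settings, B2M was lower in HEB KO by a log2 difference between -1.35 and -0.999 and HLA-E between -0.78 and -0.46. HLA-B (0.15 to 0.60), TAP2 (0.22 to 0.58) and NLRC5 (0.021 to 0.50) stayed higher, and HLA-C (-0.28 to 0.23), TAP1 (-0.26 to 0.055), HLA-F (-0.070 to 0.16) and TAPBP (-0.53 to 0.081) took either sign. The median of the 9 genes ranged from -0.26 to 0.082 with single libraries left out, against -0.06. Of the 9 genes, those with no overlap numbered 2 under quantile normalization and under the trimmed mean of M values. They numbered 3 to 4 with single libraries left out and 4 without both libraries numbered 1. Fewer libraries make separation more common. Over all genes tested, the share with no overlap was 19.5% with all libraries and 43.3% without HEB KO library 1. That share was not computed for the other settings, so nothing is read from these counts.

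Against 31 genes called over all genes, there were 11 with no filter, 18 with a filter at 5 FPKM, 10 with the replicate block, 1874 with library weights, 480 without both libraries numbered 1, and between 7 and 76 when 1 library was left out. The list genes called numbered 15 with library weights and 4 without both libraries numbered 1, those being MICB, IRF3, ISG15 and IFI6, and 0 in all other settings. The cause of these shifts was not tested. The deviations of same-numbered libraries correlated at 0.262, -0.0399 and 0.269, so the numbers were not taken to pair the libraries, and the replicate block called 0 list genes. The highest correlation of any pair was 0.408, between wild type library 3 and HEB KO library 2. The best match of wild type library 2 was HEB KO library 1, at 0.146. The genes that separated beside B2M and HLA-E were HLA-B higher without wild type library 1, NLRC5 higher without wild type library 2 or HEB KO library 2, HLA-C and TAP1 lower without wild type library 3, TAPBP lower without HEB KO library 1 and TAP2 higher without HEB KO library 3.

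Of 14 named list genes, none of which passed in any setting, some took the other sign. With quantile normalization PSMB5 was at 0.0070, CALR at 0.091 and RFX5 at 0.026. With library weights PSMB5 was at 0.26, PSMB6 at 0.083, PSME2 at 0.0081, PROCR at 0.044 and NFYB at 0.13. Without both libraries numbered 1, PSMB5 was at 0.18, PROCR at 0.22, CALR at 0.15 and NFYB at 0.0029. With single libraries left out the ranges were -0.40 to 0.33 for PSMB5, -0.50 to 0.17 for PSMB6, -0.40 to 0.068 for PSME2, -0.29 to 0.081 for PROCR, -0.36 to 0.11 for CALR, -0.60 to 0.0078 for NFYB and -0.24 to 0.42 for IFITM3.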
